A study of Mus musculus and Homo sapiens with 20 samples.

Results

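The 34 genes described here encode the transporters, enzymes and flux regulators of glycolysis (21 genes), the hypoxia-inducible factor (HIF) subunits with their regulators (5 genes) and other genes of the hypoxia response (8 genes). They were chosen by name, as the rows of the count tables whose gene symbol equals a listed member, from tables of 63568 genes for human K562 cells and 43626 genes for each of 2 mouse lines. GPI is listed as Gpi1 in mouse. Each line gave RNA-seq counts for 3 Control libraries, whose columns name the solvent DMSO, and for 3 HSP90i libraries from cells exposed for 16 h to NVP-AUY922, a small molecule that blocks the ATP pocket of the HSP90 chaperones. K562, a human chronic myeloid leukaemia line, received 300 nM. MEF (mouse embryonic fibroblasts) received 200 nM, and HPC-7, a mouse blood progenitor line, received 50 nM, so that line and dose cannot be told apart. No genetic change separates the groups, and nothing in the labels says whether the replicates were grown separately, so that p-values reflect only the spread between these libraries, which may be technical.

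Glycolysis splits glucose into pyruvate, which lactate dehydrogenase can reduce to lactate when respiration is limited. Many of its genes are targets of HIF, a pair of an oxygen-regulated alpha subunit (HIF1A or EPAS1) and a stable partner. In oxygen the prolyl hydroxylases EGLN1 and EGLN3 mark the alpha subunit and VHL delivers it for destruction, and HIF1A is a known client of HSP90.

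The depth was 7936070 to 10950600 gene counts a library for K562, 10542300 to 22872500 for MEF and 10131500 to 16859400 for HPC-7. K562 Control replicate 1 stood apart, with a chi-square of 43.6 and 55.2 per gene against the other Control libraries, which differed from each other by 5.43. Of 8 heat shock genes, all 8 were higher in HSP90i in K562 and MEF, while 6 were higher and 1 was lower in HPC-7. The labelled cell types showed their markers, though not those alone. Fibroblast markers summed to between 13583 and 13941 CPM in MEF Control. All 10 progenitor markers exceeded 1 CPM in HPC-7, and all 9 erythroid markers did so in K562. There the progenitor marker CD34 was at 0. K562 Control also held 518 to 892 CPM of epithelial markers (4 of 5 over 1 CPM). Its macrophage markers summed to 141 to 150 CPM (1 of 5). Progenitor markers summed to 224 to 271 CPM in MEF Control (4 of 10). In HPC-7 fibroblast markers summed to 179 to 203 CPM in Control and 268 to 310 CPM in HSP90i (1 of 9). After treatment the fibroblast sum in MEF was 18951 to 19494 CPM. The progenitor sum went from 3051 to 3095 CPM up to 4759 to 5214 CPM in HPC-7. In K562 that sum went from 1060.5 to 1092 CPM down to 754 to 793 CPM. Single markers went both ways in the mouse lines, by the test described below. Of 10 progenitor markers tested in HPC-7, 6 were higher and 2 lower, where 73.1% of all genes were called. Of 8 fibroblast markers tested in MEF, 5 were higher and 3 lower, where 73.4% were called. In K562 3 of 9 tested progenitor markers were lower and the others not called, where 11.1% were called. Sums for other cell types differed between the groups as well. In HPC-7, erythroid markers summed to 50.5 to 52.3 CPM in Control and 149.8 to 196.2 CPM in HSP90i (4 of 9 over 1 CPM in Control), endothelial markers to 18.4 to 19.4 and 59.2 to 69.6 CPM (2 of 5, Tek at 0), and macrophage markers to 35.0 to 39.3 and 67.1 to 81.0 CPM (2 of 5, Marco at 0). In MEF, epithelial markers summed to 7.0 to 7.6 CPM in Control and 18.8 to 19.7 CPM in HSP90i (1 of 5), and macrophage markers to 5.23 to 6.03 and 10.1 to 12.5 CPM (2 of 5, Marco at 0). The part of these shifts in the results for the members was not tested.

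After HSP90 inhibition the members fell more often than they rose in HPC-7, moved both ways in MEF and mostly missed the threshold in K562. In HPC-7, 17 of 29 tested members fell and 5 rose, where 73.1% of all 11703 tested genes were called, 36.6% lower and 36.5% higher. Most of these falls were in glycolysis genes, of which 13 of 19 tested fell, the flux regulators Pdk1 and Pfkfb3 among them. The median log2 fold change of the 19 was −0.83. In MEF 15 of 31 tested members fell and 12 rose, where 73.4% of 12340 genes were called, 38.2% lower and 35.1% higher. The largest of all member changes was the fall of the hexokinase gene Hk2 in MEF. In K562 4 of 31 rose and 3 fell, where 11.1% of 13456 genes were called, 5.11% higher and 5.97% lower. Levels here are CPM, each gene's count per unit of library depth after scaling between libraries, changes are log2 fold changes of HSP90i over Control with their standard errors, and a change is counted where the Benjamini-Hochberg adjusted p over all genes of the line, from the quasi-likelihood test of edgeR, was below 0.05. In these bulk libraries, fewer cells of a type and less RNA per cell cannot be told apart.

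Members were called at 75.9% in HPC-7, 87.1% in MEF and 22.6% in K562. The HPC-7 share of called members thus lay near that of all genes, while their direction leaned lower: the median log2 fold change of the members was −0.46 in HPC-7, −0.25 in MEF and −0.07 in K562, and that of all genes was 0.00, −0.01 and −0.02. Control and HSP90i libraries did not overlap for 25 of 29 members in HPC-7 (77.4% of all genes), for 28 of 31 in MEF (76.2%) and for 15 of 31 in K562 (35.2%).

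**Figure D1:**
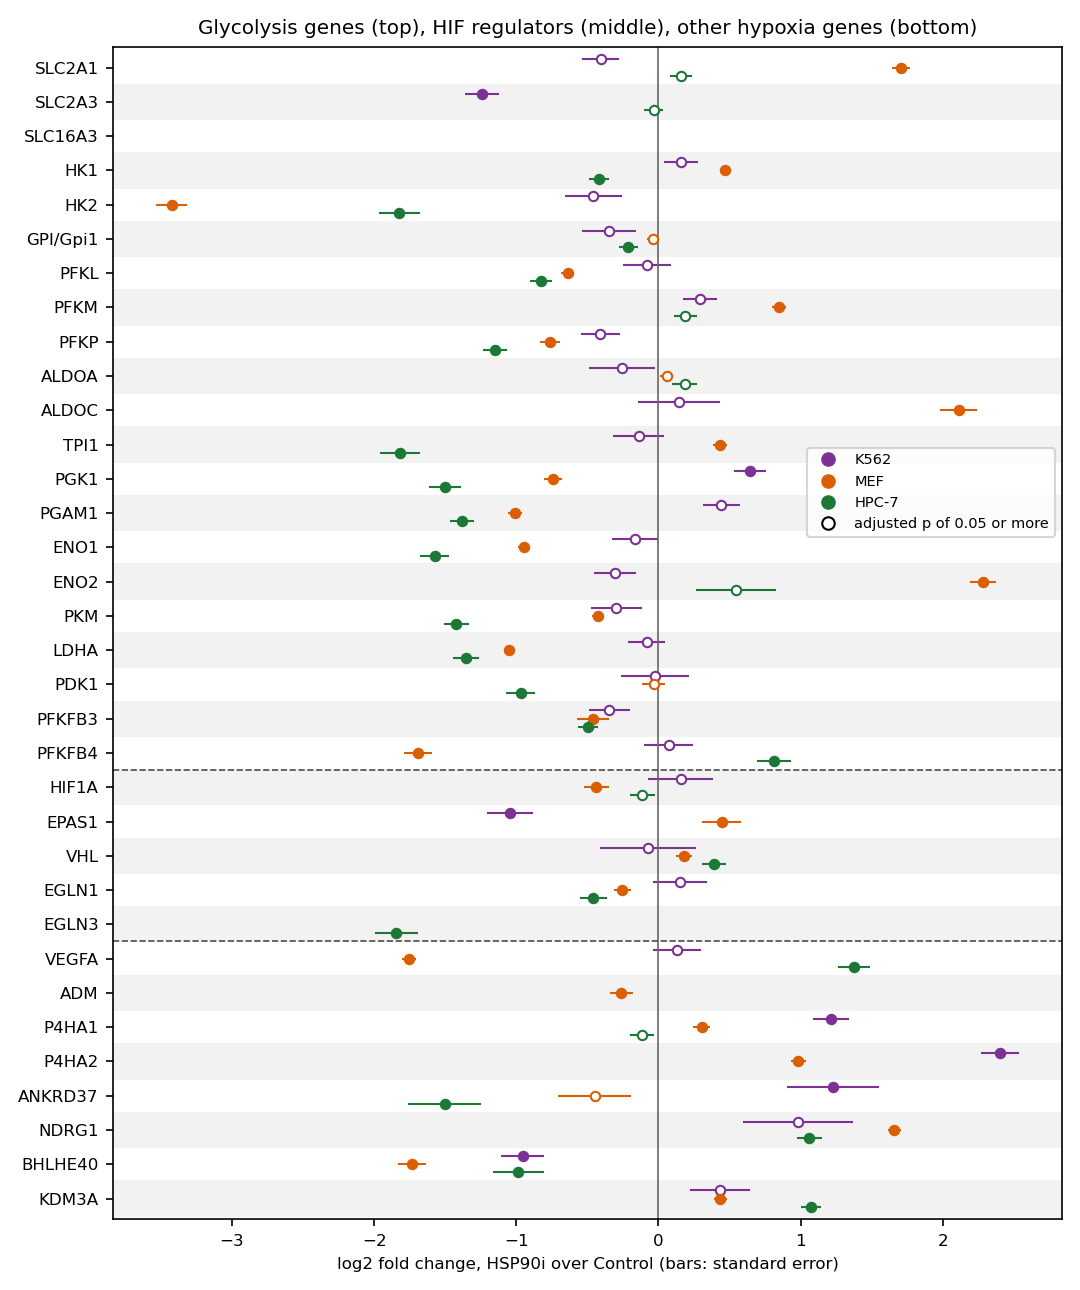
Log2 fold change of HSP90i over Control for each member (rows, by role) in K562, MEF and HPC-7, with standard errors. Filled points passed the threshold, and a gene without a point was not tested in that line. The HPC-7 points of the enzymes from PGK1 to LDHA lie below 0 except ENO2, and the lowest point is Hk2 in MEF at −3.42.

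Of 27 members tested in all 3 lines, none rose in every line and 1 fell in every line. That gene was BHLHE40, a transcriptional repressor that HIF induces. PGK1 was called in every line with mixed direction, higher in K562 and lower in both mouse lines. The remaining members tested in all 3 lines were called in at most 2 of them.

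Slc2a1, the gene of the widespread glucose transporter GLUT1, rose in MEF. There Slc2a1 stood at 96.9, 92.4 and 103 CPM in Control and 343, 311 and 299 CPM in HSP90i. Every HSP90i library lay far above every Control library, and the gene rose by 1.71 ± 0.07 (SE, n = 3 and 3, adjusted p = 8.18e-08). In HPC-7 Slc2a1 was at 57.5, 56.0 and 56.6 CPM in Control and 68.3, 60.4 and 60.8 CPM in HSP90i, a difference of 0.16 ± 0.08 that missed the threshold (adjusted p = 0.0911), although the groups did not overlap. In K562 SLC2A1 was at 155, 191 and 183 CPM in Control and 137, 128 and 134 CPM in HSP90i, and its difference of −0.41 ± 0.13 missed it as well (adjusted p = 0.0792).

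SLC2A3 encodes GLUT3, a transporter of high affinity. In K562 it fell, from 586, 695 and 691 CPM in Control to 282, 275 and 276 CPM in HSP90i, a change of −1.24 ± 0.12 (adjusted p = 0.00081). The 3 treated libraries lay close together below the lowest Control library. HPC-7 held 89.5, 87.1 and 92.2 CPM in Control and 89.8, 84.1 and 88.7 CPM in HSP90i, overlapping groups with a difference of −0.03 ± 0.07. In MEF the gene stayed below 0.8 CPM in every library and was not tested. Slc16a3, which encodes the lactate exporter MCT4, was not tested in any line, with at most 0.787 CPM in a library.

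Hexokinase traps glucose in the cell as glucose 6-phosphate. The inducible form, Hk2, fell in both mouse lines. MEF held 53.2, 52.5 and 53.2 CPM in Control and 5.56, 5.11 and 3.83 CPM in HSP90i, and the change was −3.42 ± 0.11 (adjusted p = 3.59e-08). Its Control libraries were almost equal, and no treated library kept more than 5.56 CPM. HPC-7 held 91.2, 82.1 and 80.8 CPM in Control and 21.9, 30.7 and 19.6 CPM in HSP90i, a change of −1.82 ± 0.14 (adjusted p = 2.72e-06), with the treated libraries more spread than in MEF but all far below Control. In K562 HK2 was at 79.8, 124 and 141 CPM in Control and 83.1, 85.5 and 82.5 CPM in HSP90i. There Control replicate 1 lay below the treated libraries and the difference of −0.46 ± 0.20 missed the threshold (adjusted p = 0.184). Without that library it was −0.66 with an adjusted p of 9.36e-05.

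The constitutive form Hk1 went in opposite directions in the mouse lines, higher in MEF (0.47 ± 0.04) and lower in HPC-7 (−0.42 ± 0.07), without overlap in either. In K562 HK1 differed by 0.16 ± 0.12, with overlapping groups. Gpi1, whose product converts glucose 6-phosphate to fructose 6-phosphate, showed small changes: −0.21 ± 0.07 in HPC-7 (adjusted p = 0.0151), a call lost without HPC-7 Control replicate 2 or 3, and −0.04 ± 0.04 in MEF, not called.

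Phosphofructokinase catalyses the committed step, and its 3 subunit genes did not move together. The liver subunit Pfkl fell in MEF (−0.64 ± 0.05) and in HPC-7 (−0.83 ± 0.08). The platelet subunit Pfkp fell as well, with −0.76 ± 0.07 and −1.15 ± 0.08. The muscle subunit Pfkm instead rose in MEF, from 71.5, 71.5 and 75.0 to 128, 134 and 129.7 CPM (0.85 ± 0.05), and its HPC-7 difference of 0.19 ± 0.08 narrowly missed the threshold (adjusted p = 0.053). In K562 none of the 3 was called, with differences of −0.08 ± 0.17 for PFKL, 0.29 ± 0.12 for PFKM and −0.41 ± 0.14 for PFKP.

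Aldolase A, the main aldolase of most cells, was not called in any line, with differences between −0.25 ± 0.23 in K562 and 0.18 ± 0.09 in HPC-7. Aldoc, the aldolase form best known from brain, rose in MEF. Its values there were 4.09, 3.32 and 2.95 CPM in Control and 15.7, 14.7 and 16.0 CPM in HSP90i, a change of 2.11 ± 0.13 (adjusted p = 9.92e-07). All 3 treated libraries were several times above the highest Control library, at low counts. In HPC-7 it stayed below 0.84 CPM in every library and was not tested, and in K562 it was at 11.9, 9.32 and 5.02 CPM in Control and 11.1, 9.50 and 8.56 CPM in HSP90i with no call.

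Tpi1, the triose phosphate isomerase gene, went opposite ways in the mouse lines. HPC-7 held 298, 312 and 345 CPM in Control and 82.3, 113 and 75.1 CPM in HSP90i, a fall, with a log2 fold change of −1.82 ± 0.14 (adjusted p = 2.38e-06). MEF held 493, 498 and 533 CPM in Control and 651, 696 and 710.0 CPM in HSP90i, a rise of 0.43 ± 0.05 (adjusted p = 5.92e-05). Neither line had overlapping groups, so every treated HPC-7 library was below its Controls and every treated MEF library above them. In K562 TPI1 stood at 679 CPM in Control replicate 1 and between 439 and 476 CPM in the other 5 libraries, and was not called.

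For the steps from bisphosphoglycerate to lactate, Pgk1, Pgam1, Eno1, Pkm and Ldha fell in both mouse lines. Pgk1, whose product makes the first ATP of the pathway, held 280.3, 294 and 319 CPM in Control and 95.1, 126 and 94.9 CPM in HSP90i in HPC-7 and 537, 566 and 624 CPM in Control and 326, 345 and 362 CPM in HSP90i in MEF. Both were falls, with log2 fold changes of −1.50 ± 0.11 and −0.74 ± 0.06 (adjusted p = 2.23e-06 and 1.01e-05). In K562 the same gene rose, from 221, 211 and 223 CPM in Control to 327, 361 and 333 CPM in HSP90i (0.64 ± 0.11, adjusted p = 0.0105). The K562 groups were well apart, yet the call was lost without Control replicate 2 or any 1 of the HSP90i libraries, where the values ran from 0.60 to 0.67.

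Pgam1, the phosphoglycerate mutase gene, held 402, 415 and 429 CPM in Control and 150.1, 179 and 149 CPM in HSP90i in HPC-7, a fall, with a log2 fold change of −1.38 ± 0.09 (adjusted p = 7.69e-07). In MEF it fell too (−1.01 ± 0.05). K562 PGAM1 lay the other way at 0.44 ± 0.13, above all Controls in all 3 treated libraries, without passing the threshold (adjusted p = 0.0655).

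Of the enolases, Eno1, the form of most tissues, fell in both mouse lines. In HPC-7 it was at 298, 311 and 343 CPM in Control and 104, 122 and 93.9 CPM in HSP90i, a fall, with a log2 fold change of −1.58 ± 0.10 (adjusted p = 9.95e-07), and in MEF it fell with a change of −0.95 ± 0.04 (adjusted p = 1.95e-07). Eno2, the form of neurons, went the other way in MEF, at 9.07, 8.71 and 9.23 CPM in Control and 43.8, 47.9 and 40.0 CPM in HSP90i (2.28 ± 0.09, adjusted p = 8.08e-08). Treated MEF libraries thus had lost close to a factor of 2 in Eno1 and gained a factor of 4.87 in Eno2. In HPC-7 Eno2 was near 1 CPM in every library, and its difference of 0.55 ± 0.28 was not called. Neither enolase gene was called in K562.

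**Figure D2:**
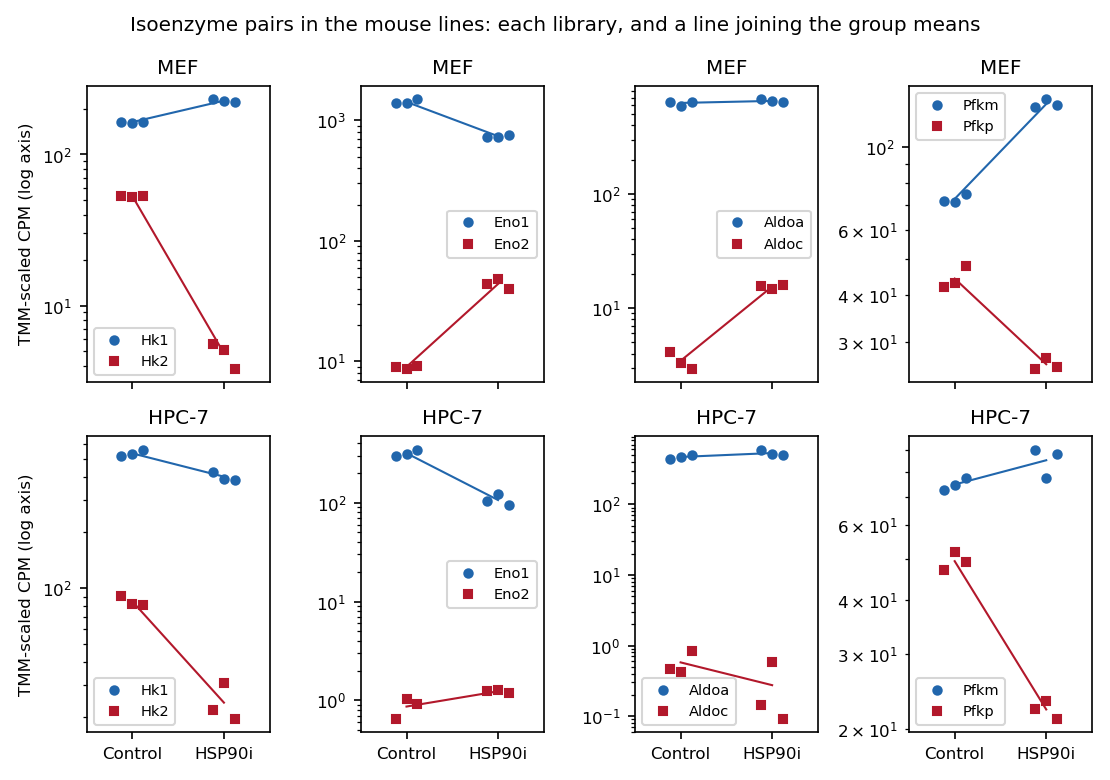
TMM-scaled CPM on log axes of 4 isoenzyme pairs in Control and HSP90i libraries of MEF (top) and HPC-7 (bottom), with a line joining the means of 3 libraries. Heights of the members of a pair are not compared, since CPM is not per length. In MEF the lines of Hk1 and Hk2, of Eno1 and Eno2, and of Pfkm and Pfkp cross in direction, and Aldoc rises from about 3 to 4 CPM to between 14.7 and 16.0 CPM.

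Pyruvate kinase and lactate dehydrogenase close the chain. Pkm held 896, 912 and 1024 CPM in Control and 355, 381 and 320.2 CPM in HSP90i in HPC-7 and 3099.7, 2970.1 and 3178 CPM in Control and 2329, 2234 and 2319 CPM in HSP90i in MEF. It fell in HPC-7 with a change of −1.42 ± 0.09 (adjusted p = 7.69e-07) and in MEF with one of −0.43 ± 0.04 (adjusted p = 2.69e-05). The fall was over a factor of 2 in HPC-7 and smaller in MEF, with separate groups in both. Ldha held 689, 686 and 758 CPM in Control and 275, 310.3 and 249.8 CPM in HSP90i in HPC-7, a fall, with a log2 fold change of −1.35 ± 0.09 (adjusted p = 1.19e-06). In MEF it held 1001, 992 and 1026 CPM in Control and 487, 481 and 489.6 CPM in HSP90i, a fall, with a log2 fold change of −1.05 ± 0.04 (adjusted p = 5.33e-08). Each treated library of either line was at about 0.5 of its Controls or less.

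In K562 the same 2 genes overlapped between groups. PKM was at 725, 455 and 496 CPM in Control and 473, 457 and 436 CPM in HSP90i and LDHA at 325, 281 and 256 CPM in Control and 266, 281 and 267 CPM in HSP90i, with differences of −0.30 ± 0.18 and −0.08 ± 0.13. In both, the highest value was that of Control replicate 1.

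The 15 enzyme genes among the members, from hexokinase to lactate dehydrogenase, were also taken as a sum. Their share of all gene counts was 0.496% ± 0.022 (SD, n = 3) in HPC-7 Control and 0.275% ± 0.017 in HPC-7 HSP90i. In MEF it was 0.858% ± 0.036 and 0.644% ± 0.003. K562 had 0.606% ± 0.096 and 0.521% ± 0.012, with Control replicate 1 at 0.718% and the other Control libraries at 0.551%. Abundant genes dominate such a sum, and it is given as a description without a test. Reads of near-identical copies could be split among rows, but adding the counts of rows named as copies of members (of Eno1, Pgk1, Pgam1 and Ldha in mouse) changed no call in any line.

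**Figure D3:**
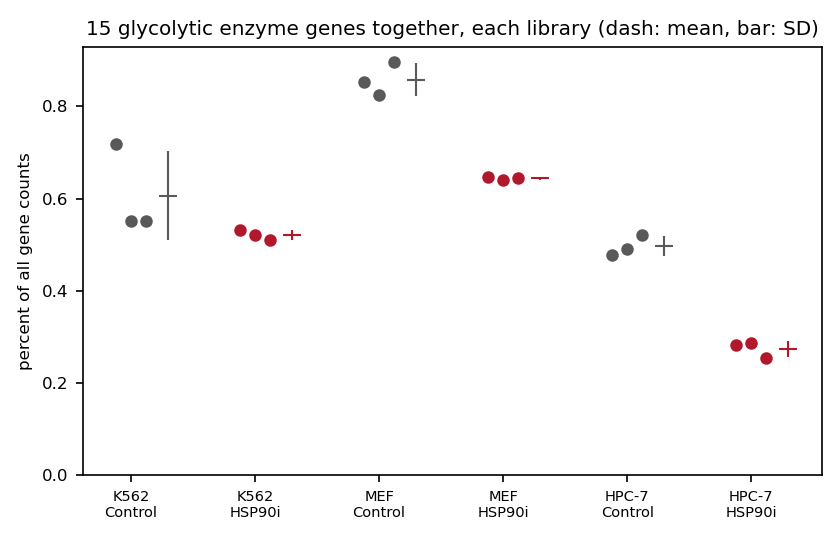
Percent of all gene counts held by the 15 glycolytic enzyme genes among the members (without GAPDH) in each library, with the mean and SD (n = 3) of each group beside the points. HPC-7 and MEF groups are separate, at 0.255% to 0.288% against 0.479% to 0.520% in HPC-7, and 1 K562 Control library lies far above the rest of its line.

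Regulators of glycolytic flux differed among themselves. Pdk1 encodes a kinase that shuts pyruvate out of the mitochondrial citrate cycle. In HPC-7 it held 91.1, 87.2 and 86.8 CPM in Control and 39.8, 52.5 and 43.4 CPM in HSP90i, a fall, with a log2 fold change of −0.97 ± 0.10 (adjusted p = 1.47e-05). In MEF, at 14.7, 15.1 and 15.1 CPM in Control and 14.0, 14.4 and 15.5 CPM in HSP90i, and in K562, at 11.3, 19.2 and 20.8 CPM in Control and 14.5, 19.4 and 16.5 CPM in HSP90i, the groups overlapped and no call was made. The drop was therefore measured in HPC-7, where every treated library was below every Control.

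Pfkfb3 and Pfkfb4 encode enzymes that set fructose 2,6-bisphosphate, the activator of phosphofructokinase. Pfkfb3 fell in both mouse lines. It held 19.9, 22.2 and 20.3 CPM in Control and 13, 15.6 and 17.1 CPM in HSP90i in MEF (−0.46 ± 0.11, adjusted p = 0.00522) and 71.7, 70.6 and 71.2 CPM in Control and 48.5, 51.6 and 51.2 CPM in HSP90i in HPC-7 (−0.50 ± 0.07, adjusted p = 0.000109). The test of the difference between the 2 falls gave 0.15 ± 0.12 (adjusted p = 0.345). In K562 PFKFB3 was at 40.0, 44.7 and 51.5 CPM in Control and 35.6, 33.2 and 38.4 CPM in HSP90i, lower in each treated library but short of the threshold (−0.35 ± 0.14, adjusted p = 0.161).

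Pfkfb4 split the mouse lines. MEF held 26.0, 24.1 and 28.5 CPM in Control and 8.65, 8.08 and 7.39 CPM in HSP90i, a fall, with a log2 fold change of −1.69 ± 0.10 (adjusted p = 8.37e-07). HPC-7 held 10.8, 8.90 and 11.4 CPM in Control and 18.8, 17.1 and 18.7 CPM in HSP90i, a rise of 0.81 ± 0.12 (adjusted p = 0.000157). Groups were separate in both lines. K562 PFKFB4 overlapped between groups, with a difference of 0.07 ± 0.17.

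**Figure D4:**
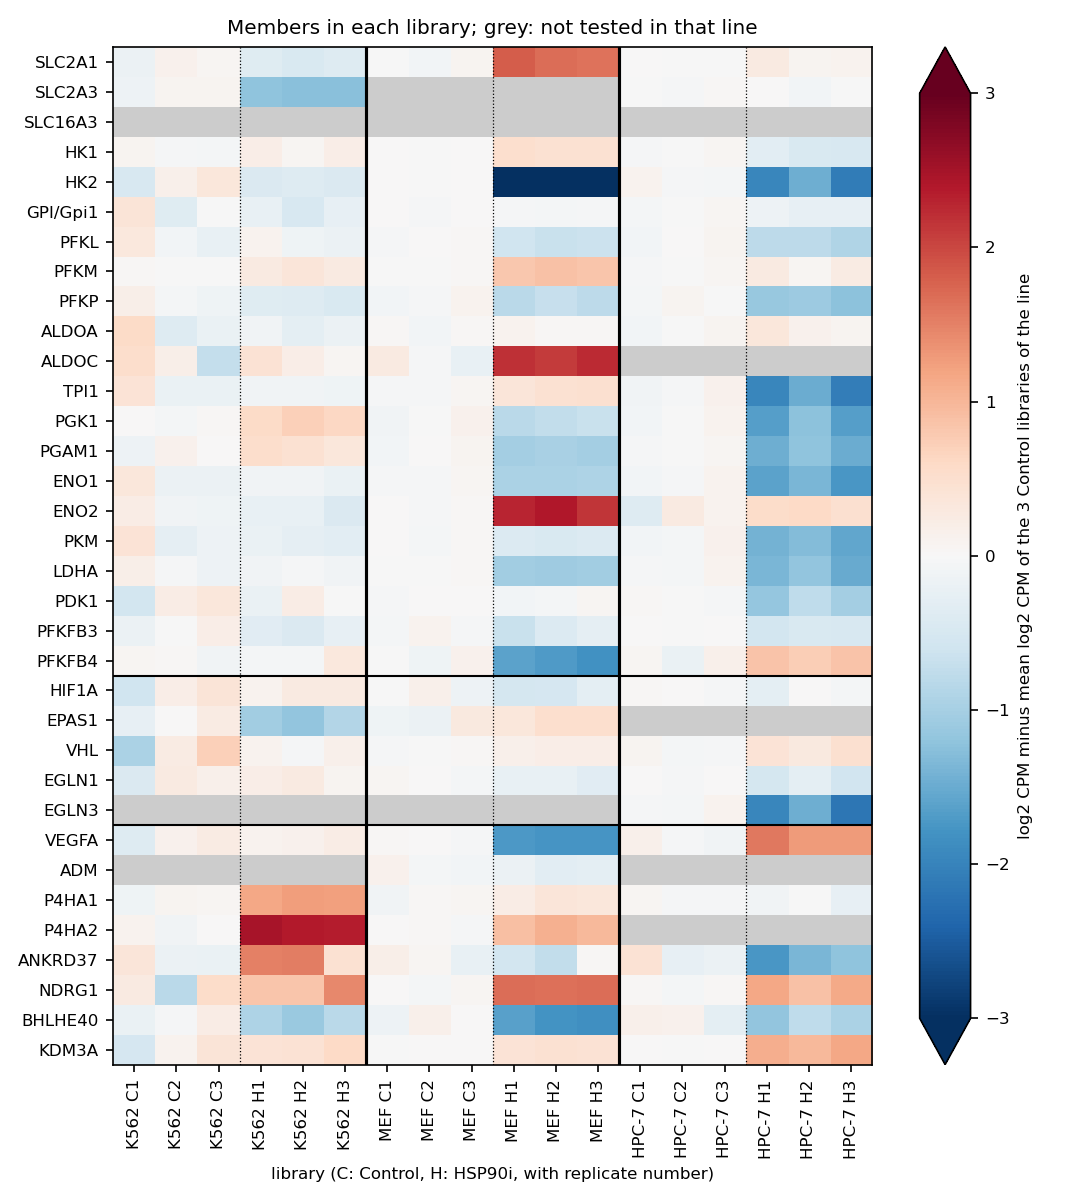
Log2 CPM of each member (rows) in each of the 18 libraries (columns), relative to the mean of the 3 Control libraries of the same line. Colours run from −3 to 3 with values outside clipped, and grey marks members not tested in that line. Blue fills most glycolysis rows of the HPC-7 HSP90i libraries, whereas K562 Control replicate 1 differs from its fellow Controls in many rows.

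In MEF the log2 fold changes of the 4 tested HIF subunits and regulators lay between −0.44 and 0.44. Hif1a held 237, 267 and 214 CPM in Control and 166, 169.6 and 195 CPM in HSP90i there and fell with a change of −0.44 ± 0.09 (adjusted p = 0.00218), with the third treated library the nearest to Control. In HPC-7 Hif1a held 145, 142 and 137 CPM in Control and 115, 142 and 136 CPM in HSP90i, overlapping groups with a difference of −0.11 ± 0.09 (adjusted p = 0.265). K562 HIF1A was at 37.3, 64.2 and 73.6 CPM in Control and 60.1, 67.6 and 67.3 CPM in HSP90i, where Control replicate 1 alone was low and no call was made (0.16 ± 0.23).

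EPAS1 (HIF2A), the second oxygen-regulated alpha subunit, fell in K562. It went from 129, 154 and 181 CPM in Control to 74.6, 66.8 and 83.0 CPM in HSP90i, a change of −1.04 ± 0.16 (adjusted p = 0.00628). The groups were far apart, though the call was lost without HSP90i replicate 1 or 2, at −1.04 and −0.96 with adjusted p-values up to 0.0545. In MEF Epas1 rose at low counts, with 6.65, 6.44 and 8.85 CPM in Control and 9.08, 10.3 and 10.3 CPM in HSP90i (0.44 ± 0.14, adjusted p = 0.0182), a call lost in 4 of 15 alternative settings. HPC-7 had 0 counts of Epas1 in all 6 libraries.

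Vhl, the substrate receptor of the ligase that destroys HIF alpha, rose in both mouse lines. It held 36.8, 33.5 and 33.8 CPM in Control and 45.8, 42.6 and 48.2 CPM in HSP90i in HPC-7 (0.39 ± 0.08, adjusted p = 0.00183) and 29.7, 29.9 and 31.1 CPM in Control and 33.6, 34.7 and 34.5 CPM in HSP90i in MEF (0.18 ± 0.06, adjusted p = 0.0186). Both rises were small and the MEF call was lost in 4 of 15 settings. In K562 VHL was at 24.9, 56.8 and 78.2 CPM in Control and 51.9, 46.7 and 53.2 CPM in HSP90i. Its Control libraries spread more widely than the treated ones, and no call was made with all 6 libraries, whereas without Control replicate 1 it was lower, at −0.41 on the log2 scale (adjusted p = 0.0242).

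Of the prolyl hydroxylases, Egln1 fell modestly in both mouse lines. It held 30.3, 29.6 and 30.5 CPM in Control and 21.1, 24.6 and 20.3 CPM in HSP90i in HPC-7 (−0.46 ± 0.10, adjusted p = 0.00158) and 66.9, 65.4 and 61.7 CPM in Control and 55.7, 55.7 and 51.4 CPM in HSP90i in MEF (−0.25 ± 0.06, adjusted p = 0.00383). In a fit over the 12 mouse libraries the MEF change was −0.14 and no longer called. K562 EGLN1, at 38.6, 63.6 and 58.6 CPM in Control and 59.9, 63.0 and 55.6 CPM in HSP90i, overlapped between groups. Egln3, itself a sensitive HIF target, fell furthest of all members in HPC-7. It held 31.8, 31.3 and 35.1 CPM in Control and 8.36, 11.9 and 7.31 CPM in HSP90i there, a change of −1.84 ± 0.15 (adjusted p = 3.69e-06), with every treated library below 12 CPM and every Control above 31 CPM. In MEF and K562 it was too low to test, at no more than 1.38 CPM in any library.

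Among the other hypoxia genes, Vegfa, the gene of the main angiogenic growth factor, gave the sharpest contrast. MEF held 101, 99.3 and 96.5 CPM in Control and 29.8, 28.9 and 29.2 CPM in HSP90i, a fall, with a log2 fold change of −1.75 ± 0.05 (adjusted p = 2.24e-08). HPC-7 held 24.3, 21.5 and 20.3 CPM in Control and 65.4, 53.2 and 53.4 CPM in HSP90i, a rise of 1.38 ± 0.11 (adjusted p = 3.15e-06). Treated libraries were all below Control in MEF and all above it in HPC-7. In K562 VEGFA was at 233, 332 and 363 CPM in Control and 327, 333 and 356 CPM in HSP90i, overlapping, with a difference of 0.13 ± 0.17.

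The collagen prolyl 4-hydroxylase alpha subunits, which modify procollagen in the endoplasmic reticulum, led the K562 response of the members. P4HA2 went from 16.4, 14.2 and 15.5 CPM in Control to 85.3, 80.1 and 79.1 CPM in HSP90i, a rise of 2.40 ± 0.13 (adjusted p = 2.89e-05). P4HA1 went from 45.0, 52.6 and 51.4 to 111, 118 and 117 CPM, a rise of 1.22 ± 0.13 (adjusted p = 0.00104). Both groups were tight and wide apart, and these 2 rises, with the fall of SLC2A3, were the K562 calls held under all 14 alternative settings. In MEF P4ha2 rose by 0.98 ± 0.05 and P4ha1 by 0.30 ± 0.06. In HPC-7 P4ha1 was not called (−0.12 ± 0.08) and P4ha2 had 2 counts in all 6 libraries together.

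Ndrg1, a stress-induced gene linked to growth arrest and differentiation, rose in both mouse lines. MEF held 75.7, 71.5 and 77.8 CPM in Control and 239, 235 and 238 CPM in HSP90i (1.66 ± 0.05, adjusted p = 2.36e-08), and HPC-7 rose by 1.06 ± 0.09 (adjusted p = 3.71e-06). All treated libraries were above all Controls in both. K562 NDRG1 was below 2.5 CPM in every library and not called. Kdm3a, a histone H3 lysine 9 demethylase gene, rose by 1.07 ± 0.07 in HPC-7 and 0.43 ± 0.05 in MEF, and its K562 difference of 0.43 ± 0.21 was not called.

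BHLHE40 fell in every line. K562 went from 507, 571 and 678 CPM in Control to 304, 268 and 333 CPM in HSP90i (−0.96 ± 0.15, adjusted p = 0.00662), a call lost without HSP90i replicate 1 or 2. MEF held 49.0, 60.5 and 54.7 CPM in Control and 17.8, 15.7 and 15.3 CPM in HSP90i (−1.73 ± 0.10, adjusted p = 6.46e-07). No treated library of either line reached its Controls. HPC-7, where the gene was low, held 9.82, 9.58 and 7.18 CPM in Control and 3.85, 5.19 and 4.57 CPM in HSP90i (−0.98 ± 0.18, adjusted p = 0.000634).

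Ankrd37, a small ankyrin repeat gene induced by HIF1A, had few counts throughout. HPC-7 held 6.88, 4.28 and 4.51 CPM in Control and 1.53, 1.96 and 2.19 CPM in HSP90i, a fall, with a log2 fold change of −1.50 ± 0.26 (adjusted p = 0.000411). K562 held 3.84, 2.67 and 2.63 CPM in Control and 8.62, 8.70 and 4.11 CPM in HSP90i, a rise of 1.23 ± 0.32 (adjusted p = 0.0446) that was lost in 6 of 14 alternative settings. The third treated K562 library lay near Control, the others well above it. In MEF it stayed below 1.8 CPM and was not called. Adm, the gene of the vasodilator peptide adrenomedullin, was measured in MEF alone, with 34.1, 29.9 and 29.2 CPM in Control and 27.6, 24.9 and 25.5 CPM in HSP90i and a fall, with a log2 fold change of −0.26 ± 0.08 (adjusted p = 0.0191) that was lost in 6 of 15 settings. It had 0 counts in HPC-7 and under 1 CPM in K562.

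The K562 counts depended on single libraries. Without Control replicate 1, 6 members were higher and 9 lower, and SLC2A1, HK2, PFKM, PFKP, PGAM1, PFKFB3 and VHL joined those called, while calls over all genes grew to 1922 higher and 1995 lower. Without HSP90i replicate 1 or 2, 2 members were higher and 1 lower, and without Control replicate 2, 2 were higher. Calls over all genes shrank in the same fits, from 688 higher and 803 lower with all libraries. They came to 173 and 183 when HSP90i replicate 1 was dropped, and 177 and 171 for replicate 2 of that group. Dropping Control replicate 2 left 241 higher and 328 lower. The member calls lost there thus went with a loss of calls over all genes. Scaling by library size alone cut the share of higher among called genes from 46.1% to 26.7%, and upper quartile factors cut it to 35.3%, each with 3 members higher and 4 lower. The K562 table lists a second row, at 0 counts, for each of ENO2, PGK1 and TPI1, which was not used.

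Whether the mouse lines differed in their response was tested directly in 1 fit of the 12 mouse libraries, by the term for line and condition acting together (the interaction). P-values were adjusted over the 13720 genes of that fit, of which 43.2% differed. Of the 27 members that also passed the filter within each line, 23 differed, 18 with a higher log2 response in MEF and 5 with a lower one. Among all 10371 genes that passed it in both lines, 53.3% differed, 3326 with a higher response in MEF and 2198 with a lower one. By role, 16 of 18 glycolysis genes, 1 of 3 HIF regulators and 6 of 6 other hypoxia genes differed. The median difference, MEF minus HPC-7, was 0.49 for the 27 members and 0.13 for the 10371 genes, a shift that depended on scaling. With RLE factors the medians were 0.37 and 0.00, 15 members were higher and 6 lower, and 2629 of all genes were higher and 2822 lower. The median of all 13720 genes was 0.11 with the main scaling and −0.01 with RLE factors. Each was smaller in size than every called member's difference, so subtracting it could change no sign and is no check.

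The largest differences among these 27 were those of genes already seen to part the lines. Relative to the HPC-7 response, the MEF response was lower for 2 genes, with a difference of −3.01 ± 0.13 for Vegfa (adjusted p = 1.38e-09) and of −2.39 ± 0.17 for Pfkfb4 (adjusted p = 8.08e-08). It was higher by 2.37 ± 0.17 for Tpi1 (adjusted p = 9.03e-08), by 1.85 ± 0.29 for Eno2 (adjusted p = 0.000132) and by 1.67 ± 0.11 for Slc2a1 (adjusted p = 6.81e-08). Hk2 fell in both lines and fell further in MEF, by a difference of −1.48 ± 0.21 (adjusted p = 5.83e-05). Eno1, Pgk1 and Pkm fell in both and fell further in HPC-7, by 0.75 ± 0.12, 0.88 ± 0.15 and 1.11 ± 0.11.

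The smaller differences rested on scaling and on single libraries. Without any 1 of the HPC-7 Control libraries the all-gene median turned to between −0.11 and −0.10 and 12 or 13 of the 33 members in that fit, Aldoc included, were higher in MEF, against 19 with all libraries. Gpi1, Pfkl, Ldha and Egln1 lost their calls in all 3 of those fits. Epas1, Adm, P4ha2 and Aldoc, at or near 0 in HPC-7, and Slc2a3 and Egln3, near 0 in MEF, passed the filter of the 12 libraries through 1 line alone and gave no usable difference.

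**Figure D5:**
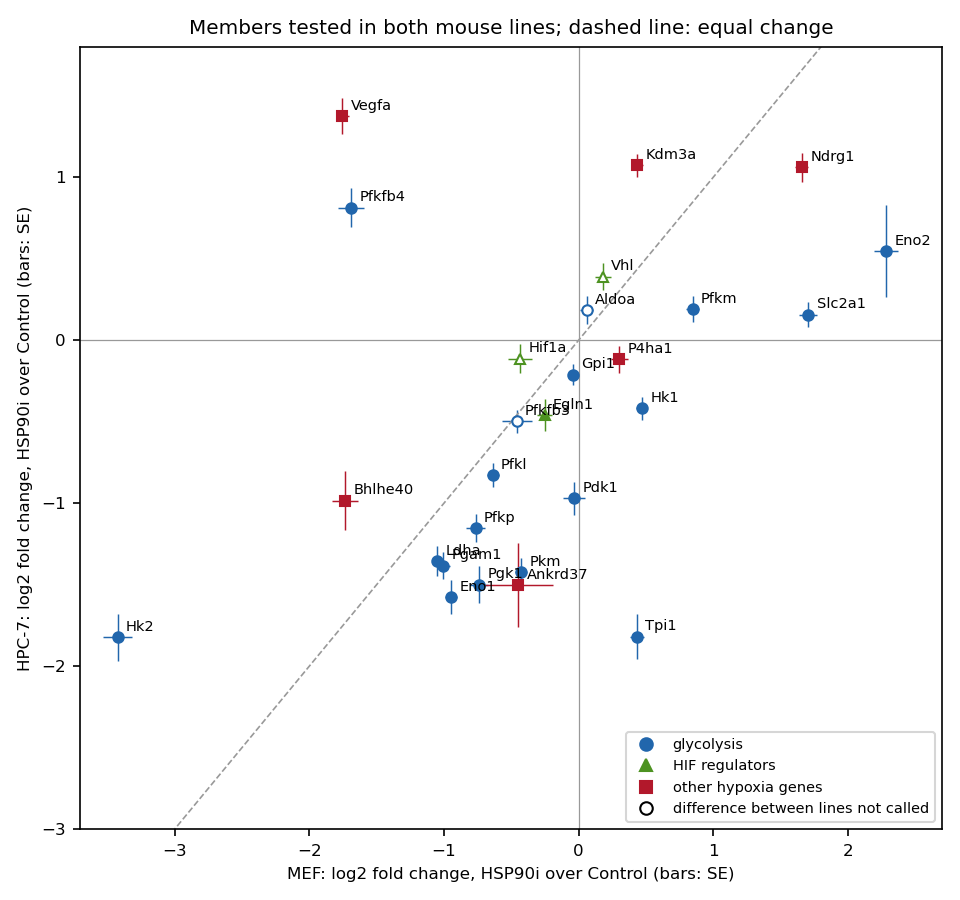
Log2 fold change of HSP90i over Control in MEF (horizontal) against HPC-7 (vertical), with standard errors, for the 27 members tested in both lines. Filled points differed between the lines, and the dashed line marks equal change. The 11 members that fell in both lines are at the lower left, Vhl, Ndrg1 and Kdm3a, which rose in both, at the upper right, and Vegfa and Pfkfb4 at the upper left. How many of all genes fell or rose in both lines was not counted.

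Untreated levels also differed between the mouse lines, at a rate near that of all genes. Of the 27 members that passed the filter in both lines, 16 were higher and 7 lower in MEF Control than in HPC-7 Control. Of all 10371 genes in both lines 80.1% were called, 3499 higher and 4810 lower in MEF, and of all 13720 genes 83.2%. With RLE factors 4097 of the 10371 were higher and 4124 lower, and 19 of the 27 members were higher and 7 lower. Control libraries of both lines also serve in the fold changes above, so the 2 sets of values are not independent. With library size alone as scaling, the all-gene median moved from −0.08 to −0.30.

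Enzymes of the lower chain were higher in untreated MEF, among them Eno1 by 2.37 ± 0.09, Pkm by 1.91 ± 0.08 and Pgk1 by 1.15 ± 0.10. The constitutive hexokinase gene and a pair of flux regulators were lower there, with differences of −1.51 ± 0.06 for Hk1, −1.58 ± 0.08 for Pfkfb3 and −2.37 ± 0.10 for Pdk1. The GLUT3 gene Slc2a3 and Egln3 were near 0 in MEF and passed the filter through HPC-7 alone, so no fitted difference is given. Scaled within each line, Slc2a3 averaged 0.52 CPM in MEF Control and 89.6 CPM in HPC-7 Control. Egln3 averaged 0.28 and 32.7 CPM. Epas1 and Adm, at 0 counts in HPC-7 Control, were at least 111-fold and at least 498-fold higher in MEF Control, taking a floor of 3 counts over the group. P4ha2 had 1 count in HPC-7 Control and 3916 in MEF Control, a ratio of 4182 with a 95% exact interval from 750 to 165225 that covers counting error only. Vegfa and Pfkfb4, which fell in MEF and rose in HPC-7, stood at higher untreated levels in MEF, by 2.36 ± 0.09 and 1.54 ± 0.11. Of the genes with the reverse responses, Tpi1 was higher in untreated MEF too, by 0.87, and Hk1 was lower, as given above. Vhl did not differ beyond its error in the main fit (−0.00 ± 0.07), though this depended on the setting.

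Hypoxia response elements share the core ACGTG or GCGTG, to which HIF binds, and the RefSeq promoters of the mouse members (assembly GRCm38.p6) were searched for both letter strings on both strands. Windows of 300 bases, 250 before and 50 after the start, were given for 30 of the 34 members, 46 windows in all. The core lay in 73.9% of them, against 43.8% of all 32851 promoters and 49.3% of those of protein-coding genes. The E-box CACGTG, which contains the core on both strands and is read by other factors, lay in 8.7% of member windows and 7.15% of all. In HPC-7, 78.3% of the 23 windows of members that fell and 42.9% of the 7 windows of members that rose held the core. In MEF the shares were 90% of 20 windows and 58.8% of 17. Several windows can belong to 1 gene, the groups are small, and a match is a description of letters, not a bound site.

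The 250 bases before the start are shown for 4 genes that fell in both mouse lines and for Tpi1 and Vegfa, which went opposite ways, with the core in capitals, 5′ to 3′ on the strand of the gene.
Hk2, chr6:82774455-82774704, minus strand: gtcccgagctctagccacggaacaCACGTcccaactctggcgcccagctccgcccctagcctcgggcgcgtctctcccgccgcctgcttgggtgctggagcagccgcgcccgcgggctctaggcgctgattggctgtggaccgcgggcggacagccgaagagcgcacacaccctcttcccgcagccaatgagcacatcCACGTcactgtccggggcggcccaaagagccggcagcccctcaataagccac
Ldha, chr7:46845554-46845803, plus strand: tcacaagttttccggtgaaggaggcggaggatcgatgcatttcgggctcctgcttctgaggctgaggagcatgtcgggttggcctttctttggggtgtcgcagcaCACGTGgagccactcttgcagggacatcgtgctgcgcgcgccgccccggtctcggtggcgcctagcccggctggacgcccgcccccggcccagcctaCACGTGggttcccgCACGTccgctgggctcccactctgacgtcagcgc
Pgk1, chrX:106186850-106187099, plus strand: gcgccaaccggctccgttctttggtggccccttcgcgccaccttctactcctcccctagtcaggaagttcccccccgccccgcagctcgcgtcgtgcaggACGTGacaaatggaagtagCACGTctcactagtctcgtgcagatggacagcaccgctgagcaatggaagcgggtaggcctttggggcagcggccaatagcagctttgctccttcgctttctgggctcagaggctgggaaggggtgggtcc
Pgam1, chr19:41911621-41911870, plus strand: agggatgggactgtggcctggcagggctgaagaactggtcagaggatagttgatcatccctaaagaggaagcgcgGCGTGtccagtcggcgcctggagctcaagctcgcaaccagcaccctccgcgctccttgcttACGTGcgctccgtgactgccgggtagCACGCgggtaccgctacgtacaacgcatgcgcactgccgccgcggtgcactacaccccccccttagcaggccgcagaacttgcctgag
Tpi1, chr6:124814159-124814408, minus strand: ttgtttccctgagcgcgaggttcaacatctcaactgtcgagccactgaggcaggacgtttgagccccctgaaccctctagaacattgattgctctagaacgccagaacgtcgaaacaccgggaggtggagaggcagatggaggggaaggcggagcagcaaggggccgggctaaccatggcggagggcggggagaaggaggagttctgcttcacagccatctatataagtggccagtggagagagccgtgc
Vegfa, chr17:46032378-46032627, minus strand: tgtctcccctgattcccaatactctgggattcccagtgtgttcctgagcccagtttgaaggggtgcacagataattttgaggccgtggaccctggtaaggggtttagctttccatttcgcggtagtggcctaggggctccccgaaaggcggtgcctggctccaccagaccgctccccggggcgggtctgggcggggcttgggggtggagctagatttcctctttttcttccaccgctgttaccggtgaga
Ldha held both of its E-boxes and a further core within 140 bases of the start, which made 5 matches, since each E-box counts on both strands. This start of Ldha lies inside the gene span given below. A second Ldha window, also inside the span, had 1 match before its start. Pgam1 held 3 matches, Pgk1 and Hk2 2 each. Tpi1 and this start of Vegfa held none in these letters, although a second Vegfa start inside the gene had 2. The 6 genes shown do not stand for all members. Hk1 and Pfkfb4, which also went opposite ways, held the core before the start. Hk1 had 3 matches in one window and 0 in the other, and Pfkfb4 had 1. Pkm, which fell in both lines, had 0 in one window and 1 in the other. The genes themselves lie on chromosome 6 from 82725025 to 82774454 (Hk2), chromosome 7 from 46842274 to 46855627 (Ldha), chromosome X from 106187100 to 106203699 (Pgk1), chromosome 19 from 41911871 to 41918665 (Pgam1), chromosome 6 from 124810586 to 124814158 (Tpi1) and chromosome 17 from 46016993 to 46032377 (Vegfa).

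Further genes of the same pathways were counted in the same fits. Of 32 further glycolysis, pyruvate and lactate genes, 3 rose and 15 fell among 21 tested in HPC-7, 9 rose and 10 fell among 24 in MEF, and 1 rose among 21 in K562. These are called shares of 85.7%, 79.2% and 4.76%, beside 73.1%, 73.4% and 11.1% of all genes. Of 45 further HIF pathway and hypoxia genes, 13 rose and 10 fell among 30 in HPC-7, 15 rose and 15 fell among 38 in MEF, and 3 rose and 2 fell among 36 in K562. Called shares of this list were 76.7%, 78.9% and 13.9%, near those of all genes. Median log2 fold changes were −0.42, 0.00 and 0.12 for the glycolysis list in HPC-7, MEF and K562, and 0.12, −0.08 and 0.18 for the hypoxia list.

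In HPC-7 the largest falls in these lists were Pdp1, a phosphatase that reactivates pyruvate dehydrogenase (−3.51 ± 0.27), Tfrc, the transferrin receptor (−3.14 ± 0.30), Mif, a cytokine gene (−2.36 ± 0.23), and Slc16a1, the lactate transporter MCT1 (−2.26 ± 0.22). Slc16a1 stood at 134 ± 1.26 CPM in Control and 28.3 ± 12 CPM in HSP90i (SD, n = 3). The largest rises there were Pdk2, a second pyruvate dehydrogenase kinase (2.50 ± 0.13), the hexokinase gene Hk3 at very low counts (2.43 ± 0.40), the mTORC1 inhibitor gene Ddit4 (1.45 ± 0.12) and the lysyl hydroxylase gene Plod1 (1.18 ± 0.14). Pdk2 and the member Pdk1 thus moved in opposite directions in HPC-7.

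In MEF Maff (−3.25 ± 0.10), Stc2 (−2.32 ± 0.27) and Cited2 (−2.04 ± 0.06), a HIF-induced inhibitor of HIF activity, were among the genes that fell. Hkdc1 (3.68 ± 0.42, near 0 in Control), Ddit4 (2.07 ± 0.06), Pdk2 (1.82 ± 0.15) and Igfbp3 (1.56 ± 0.13) rose most. In K562 PPP1R3C (1.64 ± 0.13), the lysyl hydroxylase genes PLOD1 (1.49 ± 0.17) and PLOD2 (0.96 ± 0.19), and the pyruvate dehydrogenase subunit PDHB (0.57 ± 0.13) rose, while MAFF (−1.28 ± 0.14) and LOXL2 (−1.07 ± 0.24) fell. PLOD1 and PLOD2, like the members P4HA1 and P4HA2, encode collagen-modifying enzymes.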

How the data were processed

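RNA-seq of K562, MEF and HPC-7, with 3 Control and 3 HSP90i libraries each, was analysed for the 34 listed genes. The authors deposited unnormalized read counts for every gene. Per the submitters' processing notes, Trim Galore, TopHat2 2.0.13, Picard and featureCounts were among the tools, with GRCh37, GRCm38, hg38 and mm10 among the builds and no role given. The use of strand in counting was not given, so overlapping genes and near-identical copies could share reads. The peak list and human gene positions were not used here.

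Genes were filtered with filterByExpr, scaled with TMM and tested within each line by the quasi-likelihood method of edgeR 4.0.16 in R 4.3.3, with p-values adjusted after Benjamini and Hochberg over all genes and called below 0.05. The mouse lines were also fitted together over 12 libraries. Levels are TMM-scaled CPM. All 34 mouse identifiers matched the reference names with the same symbol. Members and lists were chosen with earlier results of these data known. Every library is given for 11 genes (HK2, PFKFB3, PKM, LDHA, PDK1, SLC2A1, VEGFA, HIF1A, EPAS1, VHL and EGLN1), for up to 8 called members with the largest change per line and for up to 6 of the interaction. Up to 4 called genes per direction are named from the further pathway lists, with 1 such gene not reported here. Alternatives were other scalings, other filters, DESeq2 1.42.0, a replicate block, each library left out, a fit over the mouse libraries, and counts of named gene copies added (in mouse chosen after seeing the data). The procedures were tested on simulated data. Changes of 1.5-fold were recovered in 22.7% of cases in K562, 75.8% in MEF, 81.8% in HPC-7 and 46.9% in the interaction. A gene not called in K562 can thus still have changed. The comparison of gene starts with the peak list was not run. Figures were drawn with matplotlib.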

Additional observations from a re-analysis of the deposited data

Results flagged for a closer look

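By the interaction test of edgeR with Benjamini-Hochberg adjustment over all 13720 genes, 24 members were called as differing in response between MEF and HPC-7. Aldoc, 1 of these, passed the filter through MEF alone. The other 23 were among 27 members that passed it in both lines. Of all 13720 genes 43.2% differed, and of the 10371 that passed in both lines 53.3% did. Differences are log2 responses in MEF minus those in HPC-7, and the median over all genes was 0.11. Line and dose cannot be told apart in them.

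Among genes with a higher response in MEF, transport and the upper chain gave 1.67 for Slc2a1, 1.01 for Hk1, 0.29 for Gpi1, 0.77 for Pfkm, 0.51 for Pfkp, 0.31 for Pfkl and 2.37 for Tpi1. Aldoc, with a value of 3.33, had 1 to 10 counts in each HPC-7 library and passed the filter through MEF alone, so its value is no usable difference. The lower chain gave 0.88 for Pgk1, 0.49 for Pgam1, 0.75 for Eno1, 1.85 for Eno2, 1.11 for Pkm, 0.42 for Ldha and 1.05 for Pdk1. Outside glycolysis the values were 0.32 for Egln1, 0.54 for P4ha1, 1.17 for Ankrd37 and 0.71 for Ndrg1.

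Genes with a lower response in MEF were Vegfa at −3.01, Pfkfb4 at −2.39, Hk2 at −1.48, Bhlhe40 at −0.62 and Kdm3a at −0.52. Of the 23 that passed the filter in both lines, the 14 that were called under all 19 alternative settings included Vegfa, Pfkfb4, Hk2, Tpi1, Eno2 and Slc2a1. The other 9 were Gpi1, Pfkl, Pfkp, Pgam1, Ldha, Egln1, P4ha1, Ankrd37 and Bhlhe40, of which Egln1 lost its call in 14 settings.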

How the results depend on the processing

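Within the lines, no member changed sign among those called, under any setting run. All calls held under every alternative for 21 of 22 called members in HPC-7, 23 of 27 in MEF and 3 of 7 in K562, and for 14 of the 23 in the interaction that passed the filter in both lines. With each library left out in turn, K562 members higher ranged from 2 to 6 and lower from 1 to 9, the high end of both without Control replicate 1, and members with a higher response in MEF than in HPC-7 ranged from 12 to 19 over the 33 members of that fit, Aldoc included. Upper quartile factors gave 8 members higher in HPC-7, adding Slc2a1, Pfkm and Aldoa. For the difference between untreated lines, library size alone turned Pfkp to −0.18 and Ndrg1 to −0.028, and leaving out libraries moved Vhl between −0.0275 and 0.21. Vhl, not called in the main fit, was called lower in MEF under library size alone (−0.22). It was called higher in MEF without HPC-7 Control replicate 1. The cause was not tested. Among members not called, the sign changed 18 times in K562, 7 in MEF, 1 in HPC-7, 10 in the interaction and 11 in the untreated lines, over all settings.

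Same-numbered deviations correlated at 0.28, 0.04 and 0.45 in K562, 0.27, −0.22 and −0.25 in MEF and 0.01, 0.02 and −0.09 in HPC-7. Pairs of unlike number reached 0.38 in MEF and 0.10 in HPC-7, so the numbers showed no pairing there. In K562 such pairs ran from −0.39 to 0.17, below the values of replicates 1 and 3, so pairing by number remained unsettled. A replicate block moved the K562 calls over all genes from 688 higher and 803 lower to 872 and 938. With the replicate number as a replicate block, 4 members were higher and 3 lower in K562, 12 and 15 in MEF, and 5 and 16 in HPC-7, where Gpi1 lost its call, and 16 and 5 of the 33 differed in the interaction.

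Low counts (Aldoc, Ankrd37, Epas1), groups of 3 libraries and the spread of the K562 Controls limit what can be said of small changes. Untested members had too few counts for a statement on change.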
